A study of Sus scrofa with 12 samples.

Results

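The genes described here are the heat shock proteins, their co-chaperones and the folding and stress genes of the endoplasmic reticulum (ER), measured in the jejunum of piglets. They were chosen by name: gene names that begin with HSPA, HSPB, HSP90, DNAJ or PDIA, together with a short list of named chaperones and stress regulators such as HSPD1, CALR, CANX, ATF4, ERN1 and EIF2AK3. Of 17049 gene names in the table, 65 met the name rule, and 60 of these had a mean of at least 0.5 FPKM (fragments per kilobase of transcript, scaled to the mapped fragments of the library) over the 12 libraries. They are 60 of the 12886 gene names that reached that mean. By the compartment where the protein is known to work, 22 were cytosolic, 20 belonged to the ER, 3 were signalling genes of the unfolded protein response (UPR), 9 were mitochondrial and 6 were other genes that met the name rule. Apart from the mean level, the rule uses names only.

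Chaperones bind unfolded stretches of other proteins and keep them from aggregating while they fold. In the cytosol this work is done by HSP70 and HSP90 proteins, by J-domain (DNAJ) proteins that hand clients to HSP70, and by small heat shock proteins (HSPB) that hold unfolded clients without ATP; HSF1 is the transcription factor that induces many of these genes under heat or oxidative stress. In the ER lumen, HSPA5 (BiP), HSP90B1 (GRP94), the lectin chaperones CALR and CANX and the protein disulfide isomerases (PDIA) fold secreted and membrane proteins. When unfolded proteins build up there, the sensors ERN1 (IRE1), EIF2AK3 (PERK) and ATF6 raise many of the same folding genes, and PERK raises the translation of ATF4. In the intestine, goblet cells of the epithelium and plasma cells of the lamina propria are secretory cells with a large ER.

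Polyadenylated RNA from jejunum was sequenced in 12 libraries, 3 piglets in each of 4 groups. W_Con piglets were 21 days old and still with control sows, and PW_Con piglets were 28 days old, from control sows, and had been without the sow for 7 days. W_Res piglets (21 days) and PW_Res piglets (28 days) came from sows whose feed held 300 mg/kg resveratrol, a plant polyphenol, from 20 days after breeding to the end of lactation; the piglets themselves were given no other agent that the records name. The piglets sampled at 28 days were weaned on day 21. The records name pooled semen of Landrace boars and a week in the nursing pen after weaning, whereas the study's methods name other breeds and a move to a nursing room, so breed and housing are uncertain. By the records, litters were evened out by moving piglets between sows of the same diet. A piglet's group therefore gives the sow diet but not the birth sow, and weaning and 7 days of age cannot be told apart. The tissue is bulk jejunum, so that fewer cells of a type and less RNA per cell cannot be told apart either.

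The files give FPKM, from which the depth of a library cannot be read. Enterocyte genes were detected in all groups, with VIL1, FABP2, APOA4, SI and ANPEP among the 7 of 10 markers found, and of 6 exocrine pancreas markers the 2 found in the table were both under 0.5 FPKM. The W_Res libraries were the least alike: their correlations with each other across genes were 0.881 to 0.911, against 0.921 to 0.961 within the other groups. Loci without a gene name held 8.47% of all FPKM in W_Res2 and 8.02% in W_Res3, against 5.48% to 6.81% elsewhere, and their median was 0.685 and 0.419 FPKM against at most 0.162. At 21 days 4 of 6 T cell markers were lower in W_Res than in W_Con past the study's standard, a log2 fold change beyond 1 with an unadjusted P under 0.05 in limma. Of the 7 enterocyte markers, 6 had a log2 difference below 0 there and 1 above (median -0.76). Past the standard 1 was lower, 14.3% against 4.77% of all genes. For weaning in control litters 2 of the 7 were lower past it, 28.6% against 3.1%, and the median log2 difference of the 7 was -0.16. The part of enterocytes in the results below was not tested. The summed FPKM of 7 smooth muscle markers (ACTA2, ACTG2, TAGLN, CNN1, DES, SYNM and MYLK) was 1803, 3918 and 657 in W_Res1, W_Res2 and W_Res3, against 151 to 635 in the other 9 libraries. Of these 7 markers, 6 were higher in W_Res than in W_Con past that standard, and the part of smooth muscle in results that rest on W_Res was not tested.

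Among the named members, the ER genes had the largest summed level of any compartment. The 20 ER members summed to 1436 to 3206 FPKM per library, against 397 to 602 FPKM for the 22 cytosolic members. In every library 89.3% to 93.9% of the ER sum came from 6 lumenal genes: CALR, HSPA5, HSP90B1, PDIA4, PDIA6 and PDIA3. For most of them the levels differed strongly between piglets of the same resveratrol group, and for some of them less so within the control groups. The SD of PDIA6 was 20.7 and 15.6 FPKM in W_Con and PW_Con, against 96.6 and 78.0 in W_Res and PW_Res. That of HSP90B1 was 125.7 and 107.1 against 135.5 and 143.7 FPKM in the same order.

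HSPA5, the ER member of the HSP70 family and the usual reporter of ER load, had 462, 299 and 682 FPKM in the 3 W_Con libraries, 530, 433 and 467 in PW_Con, 703, 214 and 396 in W_Res, and 345, 398 and 795 in PW_Res. The lowest and the second highest of the 12 values both lay in W_Res, and all pairs of groups overlapped. CALR, a calcium-binding lectin chaperone and the most abundant member, had 589, 508 and 539 FPKM in W_Con, 700, 466 and 704 in PW_Con, 563, 299 and 409 in W_Res, and 304, 521 and 693 in PW_Res. HSP90B1, the HSP90 of the ER lumen, had 353, 357 and 573 FPKM in W_Con, 509, 295 and 395 in PW_Con, 474, 208 and 297 in W_Res, and 248, 408 and 535 in PW_Res. For CALR and HSP90B1, as for HSPA5, W_Res2 was the lowest library and no pair of groups was separate. Across the 9 ER members with a mean of at least 20 FPKM, W_Res2 was among the 3 lowest libraries for 7 genes, PW_Res1 for 7 and W_Res3 for 6, while PW_Res3 was among the 3 highest for 8 and W_Res1 for 6. In the resveratrol groups the high and the low libraries thus lay within the same group, which is the pattern in the plot of ER genes by library. W_Res2 and W_Res3 are also the libraries with the most signal from unnamed loci. The 3 distal small intestine markers (FABP6, SLC10A2 and SLC51A) summed to 24495 FPKM in PW_Res1 against 89.3 and 99.0 in PW_Res2 and PW_Res3, to 8228, 1337 and 61.6 FPKM in W_Con, to 221, 51.8 and 6323 FPKM in W_Res and to 6708 to 9919 FPKM in PW_Con. Of 5 crypt and cell division markers the sums were 164, 102.5 and 53.9 FPKM in W_Res and 84.7, 147 and 118 FPKM in PW_Res. They were 104 to 127 FPKM in W_Con and 119 to 169 in PW_Con. Of 4 goblet and secretory markers the sums were 1186, 571 and 1582 FPKM in W_Res and 1377, 1148 and 2268 in PW_Res. They were 650 to 1078 FPKM in W_Con and 973 to 1843 in PW_Con. The part of any of these differences in the ER values was not tested.

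**Figure D1:**
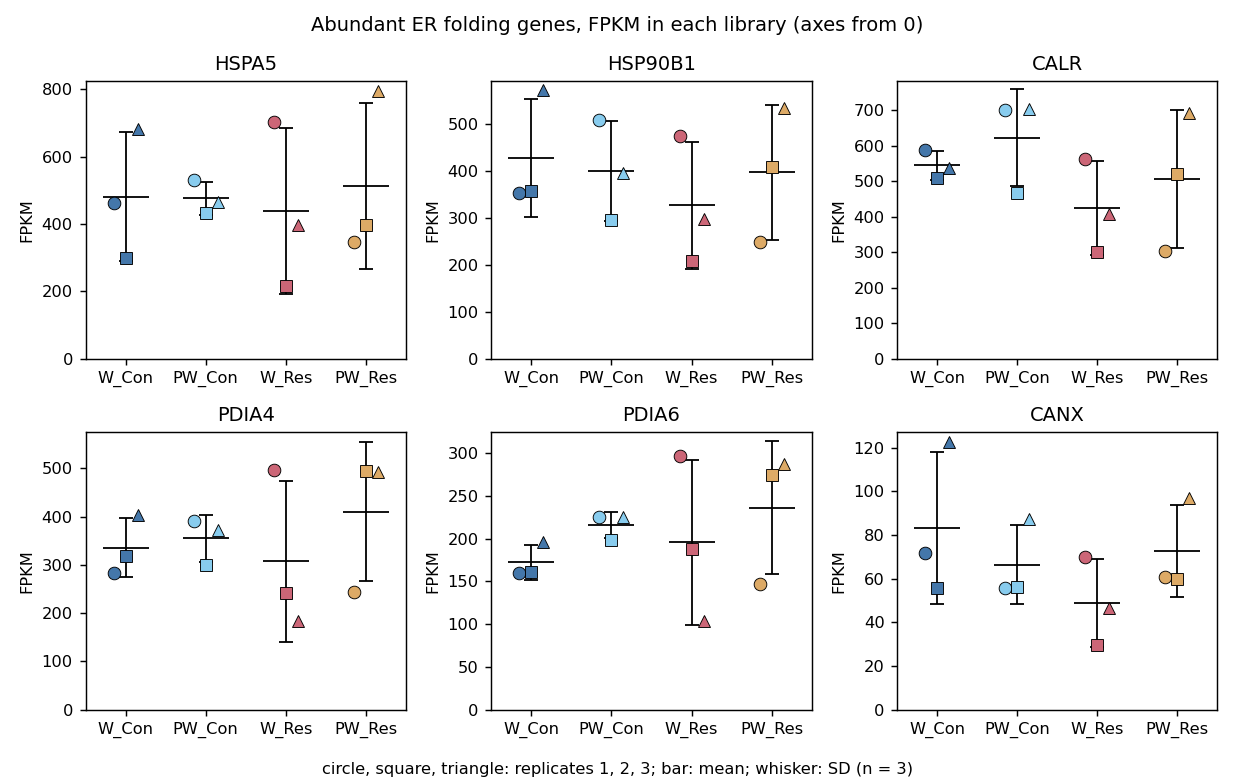
FPKM (vertical axes, from 0) of HSPA5, HSP90B1, CALR, PDIA4, PDIA6 and CANX in each of the 12 libraries by group; symbols give the replicate number, bars the mean and whiskers the SD over 3 libraries. The 3 W_Res libraries span HSPA5 levels from 214 to 703 FPKM, and the 4 groups overlap.

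Of the disulfide isomerases, PDIA4 and PDIA6 were highest in W_Res1 within W_Res and lowest in PW_Res1 within PW_Res. PDIA4 had 497, 241 and 184 FPKM in W_Res and 244, 495 and 493 in PW_Res, and PDIA6 had 296, 188 and 104 in W_Res and 147, 274 and 288 in PW_Res. In the control litters the spread was smaller: PDIA6 had 160, 161 and 196 FPKM in W_Con and 225, 198 and 225 in PW_Con, so that those 2 groups did not overlap, and this difference did not reach an unadjusted P of 0.05 in limma. PDIA3, the isomerase that works with CALR and CANX on glycoproteins, had 209, 185 and 195 FPKM in W_Con, 230, 173 and 226 in PW_Con, 226, 131 and 105 in W_Res, and 116, 151 and 165 in PW_Res. Every PW_Res value of PDIA3 was below every PW_Con value, again without an unadjusted P under 0.05. CANX, the membrane-bound lectin chaperone, ranged from 29.7 FPKM in W_Res2 to 122 FPKM in W_Con3.

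The cytosolic genes with the highest levels stood outside the name rule. HSP90AB1, the constitutive cytosolic HSP90, had 183, 173 and 185 FPKM in W_Con, 204, 183 and 188 in PW_Con, 254, 198 and 236 in W_Res, and 142, 280 and 266 in PW_Res. All W_Res values were above all W_Con values, but no comparison of HSP90AB1 reached an unadjusted P of 0.05. DNAJA1, an HSP70 partner, lay between 51.3 and 112 FPKM. HSP90AA1 and HSPA8, the main cytosolic HSP90 and HSP70, are listed only under Ensembl identifiers (ENSSSCG00000002535 and ENSSSCG00000015140), with means of 725 and 486 FPKM, and were matched through a table of gene names. In all, 12 genes of these families are listed in this way and were kept apart from the member counts. No Ensembl transcript is given for the HSPA8 locus, so its level may hold only part of the gene.

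This naming changes how the compartments compare. Among the named members the ratio of the ER sum to the cytosolic sum was 4.56 to 6.32 in W_Con, 4.54 to 5.26 in PW_Con, 3.09 to 4.94 in W_Res and 3.85 to 5.40 in PW_Res. With the identifier rows of these compartments added, the ratio was 1.33 to 1.54, 1.43 to 1.63, 0.936 to 1.53 and 1.20 to 1.35 in the same order. PW_Con and PW_Res overlapped in the ratio of members alone and did not overlap once HSP90AA1, HSPA8 and the other identifier rows were counted. The ratio is a description of sums and was given no test.

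**Figure D2:**
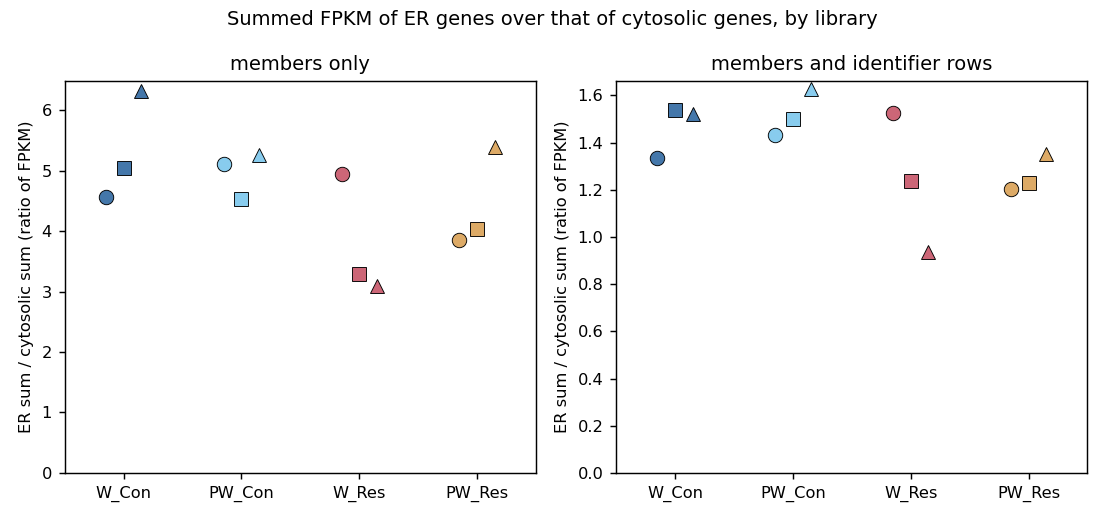
Ratio of the summed FPKM of ER genes to that of cytosolic genes (vertical axes, from 0) in each library by group, for the named members on the left and with the identifier rows added on the right; symbols give the replicate number. W_Res2 and W_Res3 hold the lowest ratios on the left, and W_Res3 alone holds the lowest, 0.936, on the right.

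Each comparison was tested with limma on log2(FPKM + 1) in one fit of all 12 libraries. A gene is said to have risen or fallen where it passed the study's own standard, which asks for a log2 fold change past 1, up or down, with P under 0.05 before adjustment. No member had a Benjamini-Hochberg adjusted p under 0.05 in any of the 6 comparisons, the lowest being 0.0629. Over all genes that share was 0.0466% for resveratrol at 21 days, 0.0776% for averaged weaning and 0.0% in the other 4 comparisons. All calls below rest on the unadjusted standard. In all, 4 of the 60 members passed the standard in at least 1 comparison (HSPB1, HSPBP1, DNAJB5 and DNAJC10), and 14 had an unadjusted P under 0.05 in at least 1; these are 6.67% and 23.3%, against 13.9% and 43.5% of all genes. No test set the cytosolic or ER members as a class against all genes. The median log2 fold change of the 22 cytosolic members was 0.03 for weaning in control litters, -0.14 for weaning in resveratrol litters, 0.15 for resveratrol at 21 days and -0.10 for resveratrol at 28 days. For the 20 ER members the same 4 medians were -0.15, -0.03, -0.17 and -0.0047, and over all 12886 genes they were -0.01, -0.15, 0.08 and -0.07. The scale is that of log2(FPKM + 1), which understates the change of genes near 1 FPKM.

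**Figure D3:**
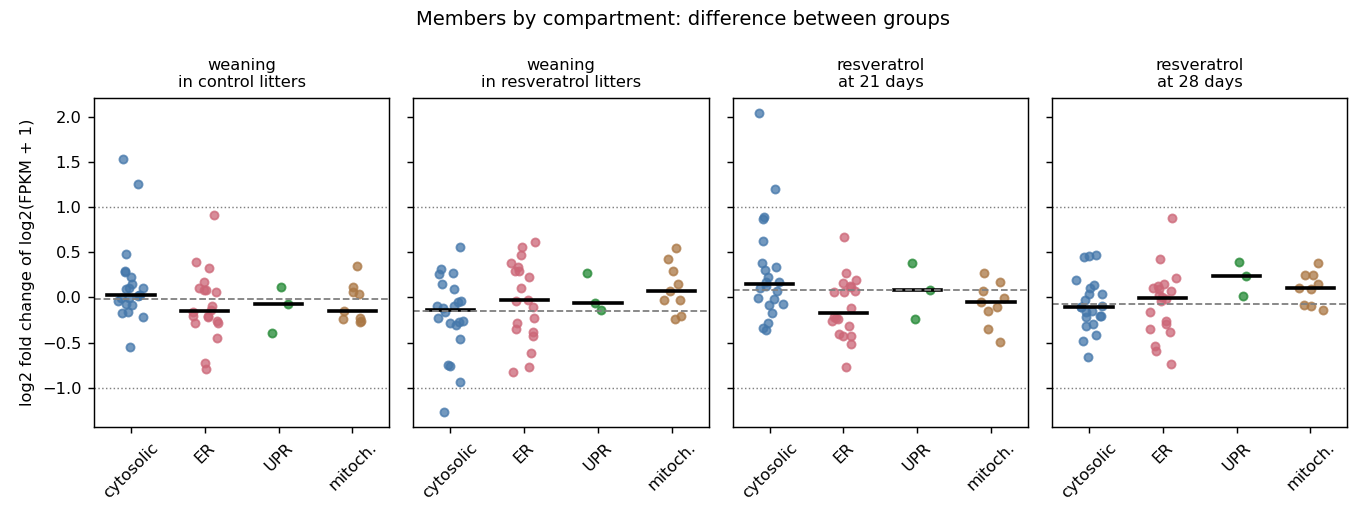
Log2 fold change of log2(FPKM + 1) (vertical axis) of each member in 4 comparisons, grouped as cytosolic, ER, UPR signalling and mitochondrial genes; black bars are class medians, the dashed line is the median of all 12886 genes and the dotted lines mark log2 fold changes of 1 and -1. Class medians lie between the dotted lines, and the points beyond the dotted lines are cytosolic genes.

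The weaning comparison in control litters asks what differed between sucking and weaned piglets without resveratrol. HSPB1 (HSP27), a small heat shock protein that holds unfolded clients and binds actin filaments, and HSPBP1, a nucleotide exchange factor of HSP70, rose; no member fell. These 2 of 60 members were 3.33%, against 3.1% of all genes past the standard in this comparison. With an unadjusted P under 0.05 alone, 3 members were higher and 3 lower, 10.0% against 15.3% of all genes. The 3 higher were cytosolic (HSPB1, HSPBP1 and DNAJB2), and the 3 lower were 2 ER J-domain proteins, DNAJB9 and DNAJC16, and the ER stress kinase EIF2AK3.

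HSPB1 had 1.93, 1.84 and 4.04 FPKM in W_Con and 16.2, 7.22 and 6.17 in PW_Con. All 3 weaned piglets were above all 3 sucking piglets, with PW_Con1 the highest. The rise was 1.53 ± 0.53 (SE) on the log2 scale (limma, adjusted p = 0.204), and without PW_Con1 it was 1.14 and no longer past the standard. Another identifier, ENSSSCG00000028568, carries the same description as HSPB1 in the table; it had 2.53, 3.27 and 3.34 FPKM in W_Con and 18.7, 9.57 and 6.82 in PW_Con, again without overlap. Its rise was 1.54 ± 0.30 (SE; limma, adjusted p = 0.0882). How reads were shared between the pair of loci is not given in the sources used here, so the level of each alone is uncertain.

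HSPBP1 had 2.08, 3.14 and 5.08 FPKM in W_Con and 7.96, 6.52 and 14.8 in PW_Con. The groups did not overlap, and PW_Con3 stood highest. The rise was 1.26 ± 0.34 (SE; limma, adjusted p = 0.131), and it fell short of the fold limit, at 0.95, without PW_Con3. DNAJB2, a J-domain protein that passes HSP70 clients to the proteasome and was chosen for description after its values were seen, had 8.24, 7.55 and 8.43 FPKM in W_Con and 11.8, 13.0 and 10.23 in PW_Con. It was higher in every weaned control piglet by a log2 difference of 0.48 ± 0.16 (SE), which is under the fold limit.

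**Figure D4:**
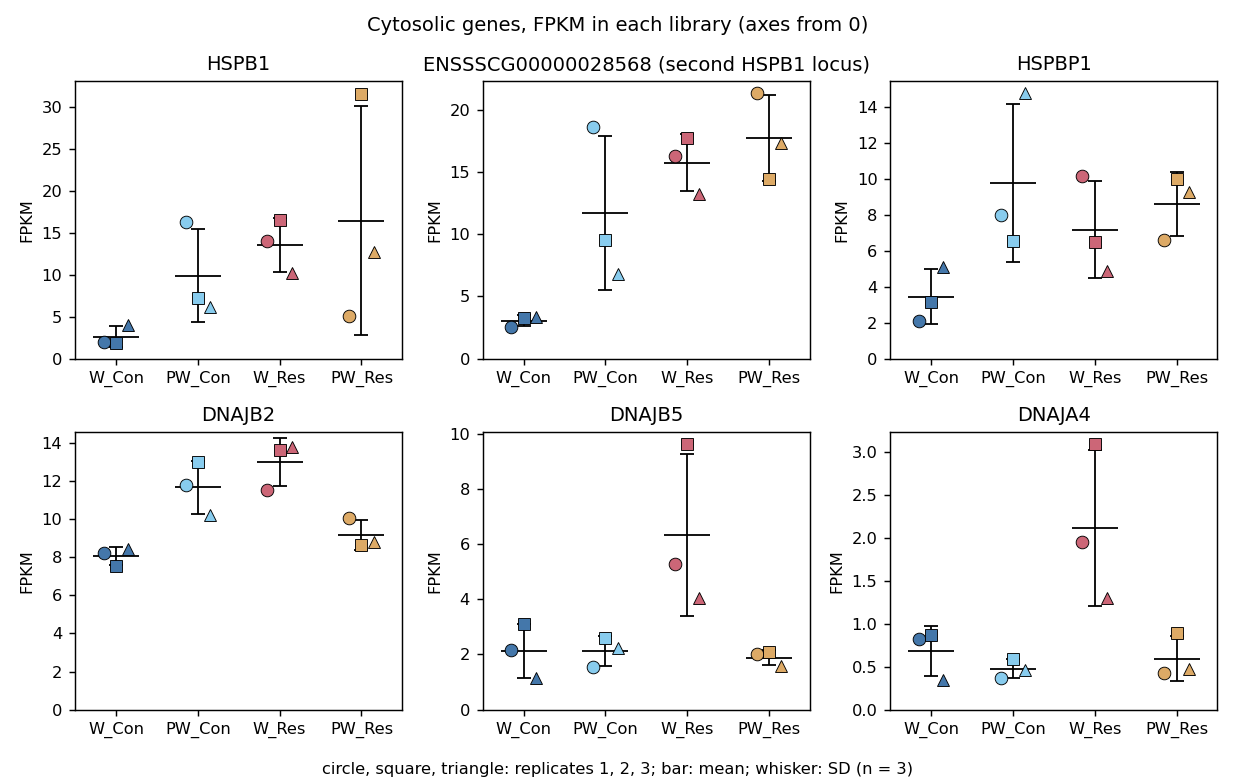
FPKM (vertical axes, from 0) of HSPB1, its second locus, HSPBP1, DNAJB2, DNAJB5 and DNAJA4 in each library by group; symbols give the replicate number, bars the mean and whiskers the SD over 3 libraries. HSPB1 and HSPBP1 are lowest in W_Con, whereas DNAJB5 and DNAJA4 are highest in W_Res.

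Among ER genes of the control litters, DNAJB9 (ERdj4), a J-domain partner of HSPA5 that is itself a target of the UPR, had 7.49, 6.05 and 7.26 FPKM in W_Con and 3.68, 3.90 and 3.13 in PW_Con. DNAJC16, an ER membrane protein with a J domain, had 4.04, 7.04 and 4.01 FPKM in W_Con and 2.17, 2.02 and 3.63 in PW_Con. EIF2AK3, the kinase that slows translation under ER stress, had 6.35, 5.06 and 6.08 FPKM in W_Con and 4.12, 4.21 and 4.23 in PW_Con. Each of the 3 was lower in every weaned piglet than in every sucking piglet. The log2 differences were -0.79 ± 0.35, -0.73 ± 0.25 and -0.39 ± 0.15 (SE), all within the fold limit. Of 7 enterocyte markers, 5 were below 0 in the same comparison and 2 above. Past the standard 2 were lower, 28.6% against 3.1% of all genes. The median log2 difference of the 7 was -0.16. FABP2, the marker with the lowest log2 difference at -2.2, had 260.4, 759.2 and 418.7 FPKM in W_Con and 130.5, 105.8 and 60.3 in PW_Con. VIL1, APOA4, SI, ANPEP and EPCAM overlapped between the groups. VIL1 had 813, 1021 and 866 FPKM in W_Con and 1012, 930 and 545.5 in PW_Con. The part of enterocytes in the values of DNAJB9, DNAJC16 and EIF2AK3 was not tested.

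SDF2L1, a lumenal partner of HSPA5, lay the other way, with 6.72, 7.79 and 11.2 FPKM in W_Con and 16.1, 18.9 and 15.1 in PW_Con. The groups did not overlap, but the log2 difference of 0.91 ± 0.52 (SE) did not reach an unadjusted P of 0.05. Its other libraries spanned 4.63 to 25.9 FPKM, with W_Res2, W_Res3 and PW_Res1 at the low end and W_Res1 and PW_Res3 at the high end, as for HSPA5. Over all members, 11 did not overlap between W_Con and PW_Con, 18.3% against 24.9% of all genes. The summed level of 9 plasma and B cell markers was 180 to 206 FPKM in W_Con and 240 to 351 in PW_Con; its part in these ER values was not tested. The summed level of 8 immediate early genes, which respond quickly to handling of tissue, was 107 to 140 FPKM in W_Con and 125 to 190 in PW_Con. These sums depend on JUNB, which was listed at 0 in W_Con3, PW_Con1 and PW_Con3. It had 33.5, 26.3 and 38.8 FPKM in W_Con1, W_Con2 and PW_Con2. Past the standard 2 of the 8, FOS and EGR1, were higher. The part of the immediate early genes in HSPB1, HSPBP1 and the other values of this comparison was not tested.

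The comparison of W_Res with W_Con asks what differed in sucking piglets with the diet of the sow. HSPB1 and DNAJB5, a cytosolic J-domain protein, rose, and no member fell. These 2 members were 3.33% of 60, against 4.77% of all genes past the standard. Under an unadjusted P of 0.05 alone 5 members were higher (HSPB1, HSPBP1, DNAJB2, DNAJA4 and DNAJB5) and 1 was lower (DNAJA2), 10.0% against 18.5% of all genes. All 6 were cytosolic, and none of the 20 ER members had an unadjusted P under 0.05. Non-overlapping groups were found for 11 members, 18.3% against 21.0% of all genes. This comparison shares the W_Con libraries with weaning in control litters. For HSPB1, its second locus, HSPBP1 and DNAJB2 these comparisons are therefore not separate evidence.

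HSPB1 had 14.1, 16.5 and 10.16 FPKM in W_Res, each more than any W_Con library. The rise was 2.05 ± 0.53 (SE; limma, adjusted p = 0.117), or 5.22-fold between the group means. The second locus had 16.3, 17.8 and 13.3 FPKM in W_Res, and its rise of 2.05 ± 0.30 (SE) had an adjusted p of 0.0479 in limma; over 22 alternatives the adjusted p was 0.0174 to 0.236, under 0.05 in 5 of them, and it was 0.0726 with the replicate number as a block. At both loci W_Con was low and the other 3 groups were higher, and the log2 rise at 21 days stayed between 1.90 and 2.31 for HSPB1 when any 1 library was left out. At both loci the W_Res libraries ran in the order of the smooth muscle sums, W_Res2 above W_Res1 above W_Res3. The summed markers and HSPB1 were 657 and 10.16 FPKM in W_Res3, and 634 and 1.84 FPKM in W_Con2. The part of smooth muscle in HSPB1 and its second locus was not tested.

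DNAJB5 had 2.14, 3.10 and 1.15 FPKM in W_Con and 5.27, 9.64 and 4.04 in W_Res, so that every W_Res library was above every W_Con library and W_Res2 was the highest. The rise was 1.20 ± 0.30 (SE; limma, adjusted p = 0.111). DNAJA4, a co-chaperone of HSP70 named here after its values were seen, had 0.820, 0.871 and 0.349 FPKM in W_Con and 1.95, 3.09 and 1.299 in W_Res. Its log2 difference was 0.86 ± 0.25 (SE), under the fold limit at this low level. In both genes the order of the W_Res libraries, W_Res2 above W_Res1 above W_Res3, was that of the smooth muscle markers. Without W_Res2 the log2 difference of DNAJB5 was 0.89, short of the fold limit, and 1 member in place of 2 passed the standard; without W_Con3 it was 0.95.

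Outside the name rule or listed by identifier, 2 other small heat shock proteins were higher in W_Res. HSPB6 (HSP20), a small heat shock protein of muscle listed as ENSSSCG00000023498, had 2.13, 0.227 and 6.70 FPKM in W_Con and 15.3, 27.0 and 10.4 in W_Res. CRYAB, the small heat shock protein alpha B crystallin and not a member by name, had 3.64, 3.02 and 3.11 FPKM in W_Con and 10.7, 9.90 and 7.22 in W_Res. Their rises were 2.48 ± 0.75 and 1.26 ± 0.23 (SE) on the log2 scale, with adjusted p of 0.139 and 0.0741 in limma. In both genes W_Res lay above W_Con without overlap, and W_Res3 was the lowest W_Res library.

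**Figure D5:**
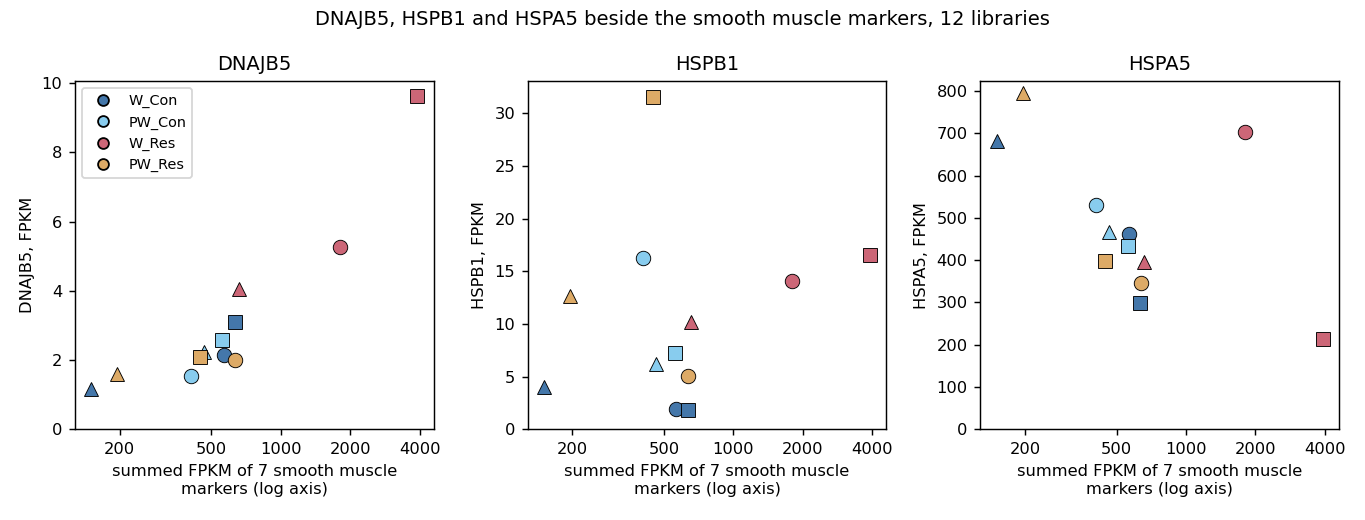
FPKM of DNAJB5, HSPB1 and HSPA5 (vertical axes, from 0) against the summed FPKM of 7 smooth muscle markers (horizontal log axis) in the 12 libraries, coloured by group, with symbols for the replicate number. DNAJB5 is highest, at 9.64 FPKM, in the library with the highest marker sum, 3918 FPKM. HSPB1 is highest, at 31.6 FPKM, in PW_Res2, which had 446 FPKM of the markers and 14.5 FPKM of the second HSPB1 locus. The part of smooth muscle was not tested.

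HSPBP1 had 10.16, 6.46 and 4.87 FPKM in W_Res; W_Res3 lay below W_Con3, so the groups overlapped, and the log2 difference was 0.89 ± 0.34 (SE). DNAJB2 had 11.6, 13.7 and 13.8 FPKM in W_Res, all above W_Con, with a log2 difference of 0.62 ± 0.16 (SE). DNAJA2, a constitutive HSP70 partner, was lower in every W_Res library, with 10.21, 9.54 and 9.66 FPKM against 13.5, 10.7 and 14.0 in W_Con. That log2 difference was -0.34 ± 0.15 (SE). HSPA5, CALR and HSP90B1 showed no such separation at 21 days, as given above.

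Weaning in the resveratrol litters compares PW_Res with W_Res. DNAJB5 fell, and it was the only member past the standard, 1.67% of 60 against 4.94% of all genes. An unadjusted P under 0.05 was found for 7 members, 11.7% against 17.6% of all genes; DNAJB1 and DNAJC11 were higher, and DNAJA4, DNAJB2, DNAJB5, DNAJC10 and DNAJC18 were lower. DNAJB5 had 2.00, 2.07 and 1.58 FPKM in PW_Res, all below the 4.04 to 9.64 of W_Res, and its log2 fold change was -1.27 ± 0.30 (SE; limma, adjusted p = 0.125). Without W_Res2 it was -0.97, and no member passed the standard. DNAJA4 and HSPB6 were lower as well, by log2 differences of -0.94 ± 0.25 and -2.75 ± 0.75 (SE), as were 6 of the 7 smooth muscle markers past the standard.

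Of the other lower genes, DNAJB2 was cytosolic and 2 were J-domain proteins of the ER. DNAJC18, an ER membrane protein whose J domain faces the cytosol, had 2.66, 3.08 and 2.31 FPKM in W_Res and 1.20, 0.908 and 1.10 in PW_Res. Its log2 difference was -0.83 ± 0.16 (SE; limma, unadjusted P = 0.000341, adjusted p = 0.113), and every PW_Res library was below every W_Res library. Its W_Res libraries, too, ran in the order of the smooth muscle sums. DNAJC10 (ERdj5), a lumenal reductase that opens disulfide bonds of proteins bound for degradation, had 6.13, 5.98 and 4.48 FPKM in W_Res and 3.17, 2.82 and 3.75 in PW_Res, also without overlap. That log2 difference was -0.62 ± 0.24 (SE).

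In the other direction, DNAJB1 (HSP40), the heat-inducible partner of HSP70, had 49.5, 29.4 and 47.0 FPKM in W_Res and 58.0, 57.5 and 67.8 in PW_Res. All weaned piglets were above all sucking piglets of this sow diet, with a log2 difference of 0.56 ± 0.24 (SE), and of 0.33 without W_Res2. The summed level of the 8 immediate early genes was 91.2 to 168 FPKM in W_Res and 172 to 277 FPKM in PW_Res, and all 8 had a log2 difference above 0. JUNB was listed at 0 in W_Res1, the library with the lowest of these sums. The part of the 8 genes in DNAJB1 was not tested. In control litters DNAJB1 overlapped, with 52.3, 31.4 and 42.6 FPKM in W_Con and 43.9, 38.9 and 51.8 in PW_Con. DNAJC11, a protein of the mitochondrial outer membrane, had 30.8, 18.3 and 17.8 FPKM in W_Res and 23.3, 40.6 and 34.9 in PW_Res, which overlap. Between W_Res and PW_Res 11 members did not overlap, 18.3% against 21.7% of all genes.

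The difference of the weaning effect between litters, the interaction of weaning and sow diet, was tested for every gene. DNAJB5 and DNAJC10 passed the standard, both with a lower effect in resveratrol litters; they are 3.33% of the members against 7.76% of all genes. At an unadjusted P under 0.05 there were 6 members, 10.0% against 13.7%. The interaction was -1.30 ± 0.43 (SE) for DNAJB5 and -1.01 ± 0.34 (SE) for DNAJC10, with adjusted p of 0.263 and 0.264 in limma. DNAJB5 had 1.54, 2.59 and 2.23 FPKM in PW_Con, within the range of W_Con, so that W_Res alone stood apart. All 7 smooth muscle markers also had a difference below 0 (median -2.77), and 5 passed the standard, 71.4% against 7.76% of all genes. Their part in the difference of DNAJB5 was not tested. DNAJC10 had 5.46, 5.22 and 2.86 FPKM in W_Con and 5.91, 4.86 and 7.66 in PW_Con, and here PW_Res was the low group. Without W_Res2 the interaction of DNAJB5 was -0.997, under the fold limit. That of DNAJC10 fell short of the limit without any 1 of 6 libraries, at -0.77 without W_Con3, -0.86 without PW_Con3, -0.94 without W_Res1, -0.96 without W_Res2, -0.999 without PW_Res1 and -0.94 without PW_Res2. It also did with median-of-ratios rescaling, at -0.86, or quantile normalization, at -0.77.

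DNAJB2 was the member whose groups moved most plainly in opposite ways. It was higher in all weaned control piglets and lower in all weaned resveratrol piglets, which had 10.1, 8.64 and 8.82 FPKM, than in the sucking piglets of the same sow diet. The 2 log2 differences were 0.48 ± 0.16 and -0.46 ± 0.16 (SE), and the interaction was -0.94 ± 0.22 (SE; limma, unadjusted P = 0.00127, adjusted p = 0.251), just inside the fold limit and past it without PW_Con3, W_Res1 or PW_Res1. The interaction was -1.57 ± 0.75 (SE) for HSPB1 (unadjusted P = 0.0584 in limma) and -1.39 ± 0.42 (SE) for its second locus (adjusted p = 0.251 in limma). That of HSPB1 passed the standard without W_Con3, PW_Con3 or PW_Res2, at -1.84, -1.82 and -2.19, with a pseudocount of 0.1, at -1.91, and with both loci summed, at -1.48, and its value nearest 0 with 1 library left out was -0.97. For HSPB1 the weaned resveratrol piglets had 5.05, 31.6 and 12.7 FPKM, the widest spread of the 4 groups. The second locus had 21.4, 14.5 and 17.3 FPKM in the same piglets, in another order. DNAJA2, by contrast, had a higher weaning effect in resveratrol litters, by 0.48 ± 0.22 (SE), and DNAJC18 a lower one, by -0.54 ± 0.23 (SE). The interaction and the comparisons on each side of it share libraries, and are not separate evidence.

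At 28 days, the comparison of PW_Res with PW_Con asks what differed in weaned piglets with the diet of the sow. No member passed the standard, against 1.55% of all genes, and 3 had an unadjusted P under 0.05, 5.0% against 7.76%; limma gave no member an adjusted p under 0.05. All 3 were ER genes: DNAJC10 and DNAJC18 were lower in PW_Res and DNAJB9 higher. DNAJC10 had 3.17, 2.82 and 3.75 FPKM in PW_Res against 5.91, 4.86 and 7.66 in PW_Con, a log2 difference of -0.74 ± 0.24 (SE). DNAJC18 had 1.20, 0.908 and 1.10 FPKM against 1.75, 1.66 and 1.65, a log2 difference of -0.38 ± 0.16 (SE). Neither gene overlapped between the groups.

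DNAJB9 had 7.64, 3.61 and 13.8 FPKM in PW_Res against 3.68, 3.90 and 3.13 in PW_Con. PW_Res2 lay within the PW_Con range, so the groups overlapped, and the log2 difference was 0.88 ± 0.35 (SE). Without PW_Res2 it was 1.31 and past the standard, and without PW_Res3, the highest library, it was 0.47 with an unadjusted P of 0.138 in limma. Of the 60 members 8 did not overlap, 13.3% against 17.2% of all genes.

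Averaged over both kinds of litter, weaning moved no member past the standard, against 1.42% of all genes, and 7 members had an unadjusted P under 0.05, 11.7% against 19.0%. HSPBP1 was higher, by 0.76 ± 0.24 (SE), and DNAJA4, DNAJB5, DNAJB12, DNAJC16, DNAJC18 and EIF2AK3 were lower. DNAJC18 had the lowest adjusted p of any member in any comparison, with a log2 difference of -0.56 ± 0.12 (SE; limma, unadjusted P = 0.000508, adjusted p = 0.0629). In control litters it had 2.06, 2.47 and 2.31 FPKM before and 1.75, 1.66 and 1.65 after weaning.

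DNAJB12, DNAJC16 and DNAJC18, 3 of the 20 ER members, were lower in every weaned piglet than in every sucking piglet of the same sow diet, for both diets. They were the only members of which this held in either direction, 5.0% of 60 against 2.79% of all genes. DNAJB12, which takes part in the degradation of misfolded membrane proteins and is named here after its values were seen, had 14.0, 14.9 and 14.7 FPKM in W_Con, 7.43, 11.8 and 12.7 in PW_Con, 16.3, 15.7 and 18.4 in W_Res, and 13.9, 13.8 and 9.34 in PW_Res. Its log2 difference was -0.44 ± 0.15 (SE). DNAJC16 had 3.22, 3.58 and 4.39 FPKM in W_Res and 3.17, 2.03 and 2.73 in PW_Res, and its averaged log2 difference was -0.56 ± 0.17 (SE). DNAJB14, the closest relative of DNAJB12 and likewise named after its values were seen, had 5.47, 5.84 and 5.02 FPKM in W_Con, 5.11, 3.93 and 5.68 in PW_Con, 4.44, 1.99 and 4.68 in W_Res, and 1.44, 3.65 and 4.11 in PW_Res, and overlapped in both. DNAJC1 and DNAJC14, J-domain proteins of the ER also named after their values were seen, overlapped in both as well. No list of ER J-domain proteins was tested.

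Of the UPR signalling genes, 3 were members. ATF4, the transcription factor made under amino acid shortage and ER stress and controlled chiefly by translation, had 178, 165 and 99.9 FPKM in W_Con, 215, 142 and 122 in PW_Con, 179, 142 and 138 in W_Res, and 144, 222 and 193 in PW_Res. ERN1, the sensor that splices XBP1, had 5.66, 4.01 and 5.51 FPKM in W_Con, 6.92, 2.37 and 6.0004 in PW_Con, 5.86, 9.59 and 5.65 in W_Res, and 6.28, 6.51 and 6.73 in PW_Res. Neither had an unadjusted P under 0.05 in any comparison. EIF2AK3, given above for the control litters, had 5.05, 4.45 and 4.80 FPKM in W_Res and 4.23, 3.84 and 4.70 in PW_Res, which overlap, and its averaged weaning difference was -0.26 ± 0.11 (SE).

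XBP1 and ATF6 are listed by identifier only. ATF6 (ENSSSCG00000006346) lay between 1.56 and 6.16 FPKM. XBP1 (ENSSSCG00000030996) lay between 1.62 and 5.31 FPKM, from loci to which the table gives no Ensembl transcript, so this level may hold only part of the gene. Neither ATF6 nor XBP1 had an unadjusted P under 0.05 in limma in any comparison. DDIT3 and HERPUD1 were not analysed here. Of the other identifier rows, DNAJC25 (ENSSSCG00000005460), an ER membrane J-domain protein, was lower in W_Res, with 7.47, 3.13 and 5.49 FPKM, than in W_Con, with 8.66, 8.58 and 9.19 FPKM, at an unadjusted P of 0.0282 in limma and without overlap. HSPA12B (ENSSSCG00000007147), a distant relative of HSP70, was higher, with 1.65, 2.98 and 1.75 FPKM in W_Res and 1.61, 0.726 and 0.610 FPKM in W_Con, at an unadjusted P of 0.0169 in limma and without overlap.

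Of the mitochondrial members, HSPE1, HSPD1 and HSPA9 behaved like the abundant ER genes in that single libraries led. HSPE1 and HSPD1, the chaperonin pair HSP10 and HSP60 of the mitochondrial matrix, had 537, 233 and 247 FPKM and 191, 62.9 and 61.5 FPKM in W_Res, against 283 to 347 and 112 to 125 FPKM in W_Con. HSPA9 (mortalin), the matrix HSP70, had 103, 58.2 and 45.8 FPKM in W_Res against 84.2 to 106 in W_Con. W_Res1 was at or near the top and the other W_Res libraries near the bottom for HSPE1, HSPD1 and HSPA9. Over all 9 mitochondrial members W_Res1 was among the 3 highest libraries for 6. DNAJC4 and DNAJC28, named here after their values were seen, ran otherwise. In W_Res they had 8.06, 11.7 and 9.49 FPKM, and 1.20, 0.499 and 1.73 FPKM. No mitochondrial member passed the standard in any comparison, and DNAJC11 alone had an unadjusted P under 0.05, for weaning in resveratrol litters, 11.1% of the 9 against 17.6% of all genes.

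Some members had high values in 1 or a few libraries. HSPB8, a small heat shock protein that works with BAG3 in selective autophagy, had 17.5 FPKM in W_Res1 and between 0.557 and 4.61 FPKM in the other 11 libraries. PDIA2, a disulfide isomerase best known from the pancreas and named here after its values were seen, had 4.05 FPKM in W_Res2 and at most 0.405 FPKM elsewhere. HSPA2, the HSP70 form best known from testis, was listed at 0 in 9 of 12 libraries and had 2.14, 3.46 and 1.61 FPKM in W_Con2, W_Res3 and PW_Res2. HSPH1 (HSP105), a heat-inducible exchange factor, ranged from 8.68 FPKM in PW_Res2 to 31.2 FPKM in PW_Res3, both in one group. PDIA2 and HSPA2, with means of 0.530 and 0.601 FPKM, were just inside the level rule. DNAJB13, HSPA12A, HSPB3, HSPB9 and DNAJB8, with means of 0.328, 0.218, 0.068, 0.029 and 0.012 FPKM, were under it and were not tested.

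The partners of these genes outside the name rule were counted from 4 lists. Of 23 cytosolic co-chaperones and HSF genes tested, none passed the standard for weaning in control litters (limma gave 4 an unadjusted P under 0.05, all higher, 17.4% against 15.3% of all genes). CRYAB and BAG2 passed for weaning in resveratrol litters (both lower), for the difference between litters (both lower) and for resveratrol at 21 days (both higher), 8.7% of the list against 4.94%, 7.76% and 4.77% of all genes. BAG2, a co-chaperone of HSP70 that inhibits the ubiquitin ligase CHIP, had 0.563, 1.64 and 0.315 FPKM in W_Con and 3.95, 5.28 and 2.21 in W_Res, in the library order of the smooth muscle sums of 1803, 3918 and 657 FPKM. These are sums over its loci: for the locus with the highest mean alone BAG2 did not pass, with 0.73 on the log2 scale at 21 days, -0.77 for weaning in resveratrol litters and -0.67 for the difference. CRYAB was lower after weaning in resveratrol litters by 1.66 on the log2 scale, with a value of -1.66 ± 0.23 (SE; limma, adjusted p = 0.0746), and had 1.81, 3.57 and 1.61 FPKM in PW_Res.

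HSF1, the heat shock transcription factor, had 3.46, 3.14 and 3.57 FPKM in W_Con, 5.98, 5.08 and 6.91 in PW_Con, 7.23, 5.21 and 5.60 in W_Res, and 5.16, 5.65 and 6.002 in PW_Res. As for HSPB1, W_Con was the low group and did not overlap with the others. Its log2 differences were 0.66 ± 0.17 for weaning in control litters and 0.67 ± 0.17 (SE) for resveratrol at 21 days, within the fold limit, with adjusted p of 0.124 and 0.118 in limma. These 2 comparisons share the W_Con libraries.

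Of 32 genes tested for ER folding and ER-associated degradation, 1 rose and 1 fell with weaning in control litters, 6.25% against 3.1% of all genes, and 2, SEL1L and EDEM3, had a higher weaning effect in resveratrol litters past the standard, 6.25% against 7.76%. DERL3, a degradation channel component that is also high in plasma cells, had 6.17, 5.41 and 7.93 FPKM in W_Con and 13.3, 13.1 and 16.2 in PW_Con. SEL1L (ENSSSCG00000002414), the adaptor of the ER ubiquitin ligase, had 18.8, 14.9 and 26.9 FPKM in W_Con and 11.6, 6.94 and 7.67 in PW_Con, a log2 fold change of -1.11 ± 0.32 (SE; limma, adjusted p = 0.149). Without W_Con3 or PW_Con2 it was -0.90 and -0.98, short of the fold limit, and the rise of DERL3 fell short of it without W_Con2 or PW_Con3, at 0.92 and 0.93. The interactions of SEL1L and EDEM3, at 1.18 and 1.02, lost the standard without any 1 of several libraries, at 0.96 for SEL1L without W_Con3 and 0.74 for EDEM3 without PW_Res1. None of the 32 passed the standard for weaning in resveratrol litters or for resveratrol at 21 or 28 days, against 4.94%, 4.77% and 1.55% of all genes, and limma gave an unadjusted P under 0.05 for 0, 3 and 1 of them, the last 2 being 9.38% and 3.12% of the list, against 17.6%, 18.5% and 7.76% of all genes.

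Of 8 targets of the integrated stress response tested, ASNS rose with weaning in control litters and TRIB3 rose with weaning in resveratrol litters and was lower in W_Res than in W_Con past the standard. In each this is 12.5% of the list, against 3.1%, 4.94% and 4.77% of all genes. TRIB3 also passed for the difference between litters and ASNS for averaged weaning, against 7.76% and 1.42% of all genes. For weaning in resveratrol litters limma gave 3 of the 8 an unadjusted P under 0.05 (2 higher, 1 lower), 37.5% against 17.6% of all genes. For weaning in control litters it was 1 of 8, 12.5% against 15.3%. In each of these comparisons 4 of the 8 did not overlap, 50% against 21.7% and 24.9% of all genes. The list as a whole was not tested. ASNS, asparagine synthetase, had 5.15, 6.43 and 5.86 FPKM in W_Con and 26.3, 8.30 and 20.7 in PW_Con, a log2 fold change of 1.38 ± 0.52 (SE; limma, adjusted p = 0.248). The groups of ASNS did not overlap, but the rise no longer passed the standard without W_Con1, PW_Con1 or PW_Con3, at 1.31, 1.07 and 1.23. TRIB3, a pseudokinase induced downstream of ATF4, had 16.7, 15.5 and 15.2 FPKM in W_Con, 10.1, 3.68 and 8.91 in W_Res and 17.8, 14.7 and 16.1 in PW_Res, a log2 fold change of 1.10 ± 0.32 (SE; limma, adjusted p = 0.158), and 0.71 without W_Res2. The difference of TRIB3 at 21 days was -1.06, and -0.68 without W_Res2; the averaged rise of ASNS was 1.11, and 0.95, 0.95 and 0.88 without PW_Con1, W_Res3 or PW_Res2. Of 6 mitochondrial partners and proteases tested, none passed the standard in any comparison; limma gave an unadjusted P under 0.05 for TRAP1 in resveratrol litters and CLPP in control litters with weaning, both higher, and for YME1L1, lower, with resveratrol at 21 days. In each comparison this is 16.7% of the list, against 17.6%, 15.3% and 18.5% of all genes. Averaged over litters, TRAP1 and CLPP were higher and GRPEL2 lower at that P, 3 of 6 genes against 19.0% of all genes.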

How the data were processed

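Jejunal poly(A) RNA of 12 piglets was sequenced on an Illumina HiSeq. Per the labels, the submitters' processing notes name HISAT2 2.0, StringTie 1.3.0, Bowtie 0.12.2 and the builds Sscrofa 10.2 and mm8. Which step used Bowtie or mm8 is not given there. The study's methods name TopHat in place of HISAT2 as the aligner, and StringTie and Ballgown for expression levels, so the aligner is uncertain. The authors deposited one table of FPKM values for 41264 loci, of which 17650 (42.8%) carry no gene name. The table records no depth and read totals were not used here, so no counting interval is given.

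Loci sharing a gene name were summed, and names whose mean over the 12 libraries was 0.5 FPKM or more were kept. log2(FPKM + 1) was fitted with limma 3.58.1 in R 4.3.3 (group means, empirical Bayes with a mean-variance trend), with Benjamini-Hochberg adjustment over 12886 names. Calls follow the study's standard, a log2 fold change past 1, up or down, with P under 0.05 before adjustment. Replicates are separate piglets. The fit was tested on simulated data. Members, lists and tests were chosen with earlier results of these data known. Members were named in the text if they passed the standard, were among the 3 most abundant of their class, belonged to a set of textbook chaperones, or were the 2 largest rises or falls with an unadjusted P under 0.05 and a mean of at least 1 FPKM in a comparison. Of the members, 49 rest on 1 locus and 11 on several. Genes listed by Ensembl identifier were given symbols from a table of gene names; 11 matched there and 1 by its description. Alternatives varied the pseudocount, the filter, the scaling, the model, the libraries and the loci. No coordinates or sequences were used here.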

Additional observations from a re-analysis of the deposited data

Results flagged for a closer look

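The weaning effect differed between the litters of control and resveratrol-fed sows for 3 genes of these families by the test of the difference itself (limma, unadjusted P under 0.05 and a log2 difference past 1), which 7.76% of all genes and 3.33% of the members passed. For DNAJB5 the difference was -1.30, with 2.13 ± 0.97 and 2.12 ± 0.54 FPKM (SD) in W_Con and PW_Con against 6.32 ± 2.94 and 1.89 ± 0.26 FPKM in W_Res and PW_Res. For DNAJC10 it was -1.01, with 4.51 ± 1.44, 6.14 ± 1.42, 5.53 ± 0.92 and 3.25 ± 0.47 FPKM in the same order. For ENSSSCG00000028568, the second HSPB1 locus, it was -1.39, with 3.05 ± 0.45, 11.7 ± 6.2, 15.8 ± 2.3 and 17.7 ± 3.5 FPKM. Among their partner genes the same test gave 1.18 for SEL1L (ENSSSCG00000002414), 1.02 for EDEM3, 1.42 for TRIB3, -1.50 for CRYAB and -1.55 for BAG2. For the locus of BAG2 with the highest mean alone it was -0.67, short of the standard. All 7 smooth muscle markers lay below 0 in this test (median -2.77), and 5 passed the standard, 71.4% against 7.76% of all genes. Their part in the differences of DNAJB5, CRYAB and BAG2 was not tested. In a linear model in the manner of Ballgown, DNAJB5, DNAJC10, the second HSPB1 locus, SEL1L, EDEM3, TRIB3 and BAG2 did not pass the standard.

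DNAJB2 met another criterion: all weaned control piglets were above, and all weaned resveratrol piglets below, the sucking piglets of the same sow diet. Its difference of the weaning effect was -0.94 on the log2 scale, within the fold limit, from 8.07 ± 0.46, 11.7 ± 1.4, 13.0 ± 1.3 and 9.18 ± 0.79 FPKM (SD). None of these differences had an adjusted p under 0.05 in limma. With 3 piglets a group, no test for single deviating samples was run, but each library was left out in turn. Without W_Res2 the difference of DNAJB5 was -0.997, under the fold limit. Those of DNAJC10, SEL1L and EDEM3 each lost the standard without any 1 of several libraries, as given above.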

How the results depend on the processing

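Counts of members past the standard were 2, 1, 2, 2, 0 and 0 for weaning in control litters, weaning in resveratrol litters, their difference, resveratrol at 21 days, resveratrol at 28 days and averaged weaning. With a pseudocount of 0.1 they were 3 for weaning in resveratrol litters, 4 for the difference, 4 for resveratrol at 21 days, 1 at 28 days and 1 for averaged weaning, where the counts over all genes went from 636 to 1237, 1000 to 1324, 615 to 1185, 200 to 456 and 183 to 591. With a minimum mean of 5 FPKM, which removes DNAJB5 and DNAJC10, they were 0 for weaning in resveratrol litters, 0 for the difference and 1 for resveratrol at 21 days, and the ER median for weaning in resveratrol litters was 0.26. Median-of-ratios rescaling and quantile normalization gave 1 for the difference, and the rescaling moved its cytosolic median to -0.059. A linear model in the manner of Ballgown gave 0 for weaning in resveratrol litters and 0 for the difference, with DNAJB5 at -0.41 and -0.50, and DNAJB5 at 0.75 for resveratrol at 21 days. In that model the calls for the difference were also lost for DNAJC10 (-0.47), the second HSPB1 locus (-1.23), SEL1L (0.80), EDEM3 (1.25), TRIB3 (1.07) and BAG2 (-1.24), as were those of ASNS for weaning in control litters (1.35) and averaged (0.86), of TRIB3 for weaning in resveratrol litters (0.72) and at 21 days (-0.87), and of BAG2 in the same 2 comparisons (-1.13 and 1.22), while HSPBP1 at 21 days (1.20) was past the standard; the cause was not tested. With a pseudocount of 0.1 EDEM3 lost its call for the difference, and DNAJC18 (-1.25) and DNAJA4 (-1.66) for weaning in resveratrol litters, DNAJB2 and HSPB1 for the difference (-1.02 and -1.91), DNAJA4 and HSPBP1 at 21 days (1.503 and 1.07) and DNAJB9 at 28 days (1.01) passed. Giving identifier rows their symbols, chosen after seeing the data, gave 2 for weaning in resveratrol litters, 3 for the difference, 3 for resveratrol at 21 days and 1 for averaged weaning.

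Leaving out 1 library at a time, the counts ranged from 1 to 2, 0 to 4, 0 to 4, 1 to 4, 0 to 1 and 0 to 1 in the order above. The ER median of the difference ranged from -0.12 to 0.27, and the cytosolic median of resveratrol at 21 days from -0.028 to 0.21. Zeros came without W_Res2 for weaning in resveratrol litters and for the difference. No gene whose fold change is printed changed direction under any alternative run. Whether replicate numbers pair piglets of a litter is not given. The study's methods describe a piglet taken from each litter at both ages. Of 18 same-numbered pairs 5 had a correlation of deviations over 0.1, in a range from -0.26 to 0.30 over the 18, and 7 of 12 libraries were closest to their own number. These pairs include pairs across sow diets, and with 3 libraries a group the values cannot exclude a pairing by litter. With the replicate number as a block the counts were 2, 1, 2, 2, 0 and 0, as without it, but the second HSPB1 locus at 21 days had an adjusted p of 0.0726 in place of 0.0479 in limma.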
